A study of Homo sapiens with 6 samples.

Results

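The 9 genes described here encode enzymes that make, phosphorylate or clear the deoxynucleotides used for DNA synthesis. They are RRM1, RRM2, TYMS, TK1, DUT, DCK, DTYMK, DCTPP1 and SAMHD1, taken from the expression table by gene symbol. They are 9 of 67130 genes listed and of 28501 genes above 0 in at least 1 sample, and all 9 were expressed enough to be tested (1 FPKM or more on average across the 6 samples). FPKM is the number of fragments of a gene divided by transcript length and by the mapped fragments of the sample. RNA-seq was done on hTERT-RPE1-TOShOFD1 cells, an immortalized human retinal pigment epithelial line that carries, by lentivirus, a Tet-On short hairpin (shRNA) directed at the mRNA of OFD1, a centriolar satellite protein. The control group was 3 samples of this line without doxycycline, labelled WT. The OFD1-depleted group was 3 samples of it with 200 ng/mL doxycycline, labelled OFD1 knockdown, and the titles of all 6 samples give 72 h. Both groups carried the shRNA vector and, by the methods, infected cells were selected with puromycin or blasticidin. No sample had doxycycline without the shRNA or with an shRNA against another target. Effects of doxycycline itself, or of the hairpin beyond OFD1, therefore cannot be told apart from the loss of OFD1. The labels number the replicates but do not say that they were separate cultures. The paper's legend to its heatmap of RNA expression calls the columns biological replicates, without saying how they were grown. If they were not separate cultures, p-values measure only the spread between these samples, which may be technical.

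DNA polymerases need 4 deoxynucleoside triphosphates. Ribonucleotide reductase, built from the large subunit RRM1 and the small subunit RRM2, makes the deoxy form of ribonucleotides and is the slow step of new synthesis. Thymidylate has routes of its own, through TYMS, which methylates dUMP, and through TK1, which phosphorylates thymidine, and DTYMK carries dTMP on to dTDP. DCK salvages deoxycytidine and some purine deoxynucleosides. DUT, DCTPP1 and SAMHD1 hydrolyse deoxynucleotides, so these 3 clear or shape the pool and do not add to it, apart from the dUMP that DUT passes to TYMS. RRM2, TK1 and TYMS are textbook genes of S phase, whereas RRM2B, a second small subunit, and TK2, the mitochondrial thymidine kinase, are made outside S phase as well.

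The knockdown was seen in the targeted gene. OFD1 (ENSG00000046651) was at 3.34, 3.62 and 3.44 FPKM in control replicates 1 to 3 and at 0.795, 0.763 and 1.43 FPKM in OFD1-depleted replicates 1 to 3, which left 22.9%, 22.0% and 41.2% of the control mean. OFD1-depleted replicate 2 stood apart from replicates 1 and 3 by transcript length. Its log2(FPKM + 0.1) minus their mean had a median of 0.34 in the shortest and -0.43 in the longest of 5 equal bins of genes by length. Values without it are given below where a call depends on it. Mitochondrially encoded genes took 8.66% to 13.8% of summed FPKM in control and 15.6% to 19.3% in OFD1-depleted samples. Of 12 markers of mature retinal pigment epithelium only MITF and OTX2 passed the expression limit, with a summed level of 8.08 to 8.96 FPKM for the list in control and 10.0 to 13.1 FPKM in OFD1-depleted samples, and TTR and DCT were at 0. The highest sum was that of OFD1-depleted replicate 2, where the marker BEST1 was at 4.33 FPKM. In every other sample BEST1 was at 0.0475 FPKM or less. RPE65 was at 0.209 FPKM or less in every sample. Of 4 keratins of simple epithelium, 3 passed (275 to 293 FPKM summed in control, 310 to 443 in OFD1-depleted samples). Of 9 neural retina markers 1 passed (PAX6) and 6 were at 0, and of 4 immune and endothelial markers 1 passed (CD68) and 1 was at 0. The part of these markers in the results was not tested.

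All 9 enzymes had lower values in OFD1-depleted cells, and 7 of them fell past the threshold. The fall was largest for RRM2, which kept 22.6% of its control level. TYMS, TK1 and DCK kept 50.2% to 50.8%, RRM1 56.1%, DTYMK 62.3% and DCTPP1 67.5%, whereas SAMHD1 at 67.1% and DUT at 74.6% did not pass. The threshold was an adjusted p under 0.05 from limma on log2(FPKM + 0.1), with Benjamini-Hochberg adjustment over the 12025 genes tested, of which 11.9% were called lower and 5.07% higher. Since all 9 log2 fold changes were negative, no member could be called higher, at an unadjusted p under 0.05 or by limma without the trend. The highest OFD1-depleted value lay under the lowest control value in all 9 genes, as it did in 22.3% of all genes tested, while 13.8% of genes tested had groups apart in the other direction. Summed over the 9 genes, expression was 375, 439 and 382 FPKM in control replicates 1 to 3 and 215, 234 and 190 FPKM in OFD1-depleted replicates 1 to 3. The median log2 fold change of the 9 genes was -0.85, beside -0.032 over all genes tested, and against the control mean it was -0.75, -0.67 and -0.95 in OFD1-depleted replicates 1, 2 and 3. Control replicate 2, which had the smallest share of mitochondrially encoded transcripts (8.66%), was the highest control in 8 of the 9 genes, DUT being the exception. In a bulk sample, fewer cells that express a gene and less of its RNA per cell cannot be told apart. Without OFD1-depleted replicate 2, 8 of the 9 genes were called lower. Over the 12044 genes tested in that setting, 1766 were called lower and 1097 higher. The split of calls over all genes moved with the scaling, from 1429 lower and 610 higher to 1990 and 272 with every sample scaled to the same total, where the median of all genes was -0.177 and all 9 enzymes were called lower, and to 1313 and 1085 with quantile normalization, where 8 were. Median-of-ratios scaling gave 1299 lower and 857 higher. There only 6 of the 9 were called, and the call of DCTPP1 was lost (limma adjusted p = 0.0686).

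**Figure D1:**
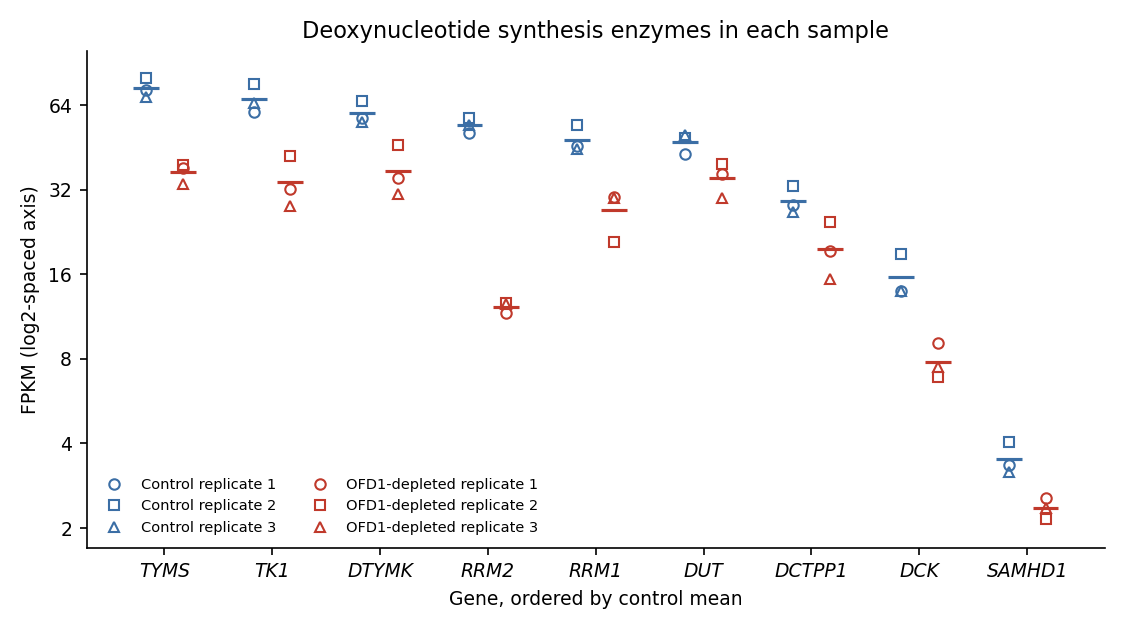
FPKM of the 9 deoxynucleotide enzymes (log2-spaced axis) in each of 3 control and 3 OFD1-depleted samples, ordered by control mean, with a symbol for each replicate number and a bar for the group mean. In every gene the 3 OFD1-depleted values lie under the 3 control values, with the widest gap in RRM2, at 51.0 to 57.8 FPKM in control and 11.7 to 12.6 FPKM in OFD1-depleted samples.

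**Figure D2:**
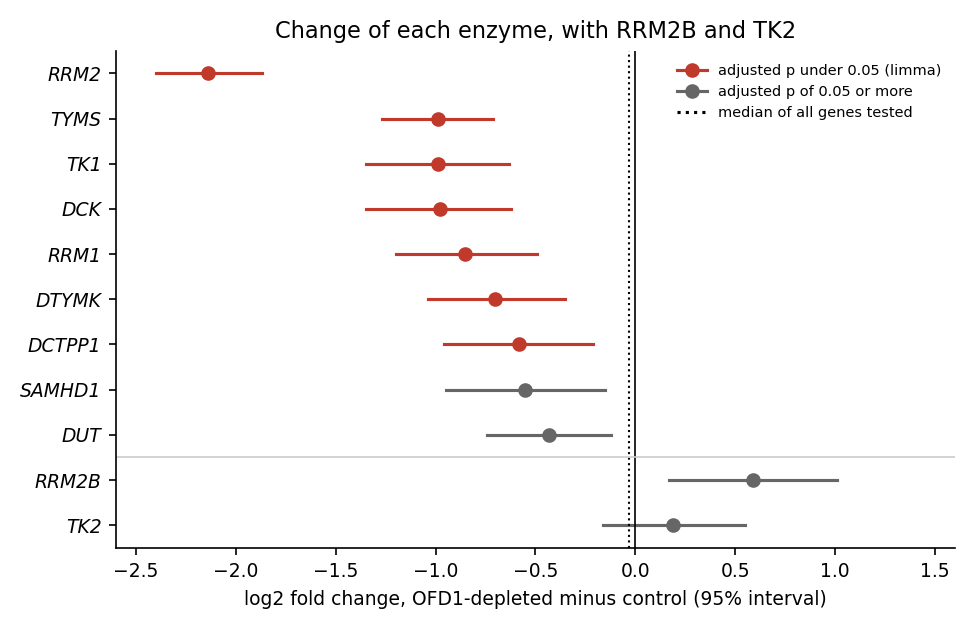
The log2 fold change of each enzyme (OFD1-depleted minus control, point) with its 95% interval from limma (line), and of RRM2B and TK2 below the grey line. Red marks the 7 enzymes with an adjusted p under 0.05, from RRM2 at -2.14 to DCTPP1 at -0.58, and the dotted line is the median of all genes tested, -0.032.

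Promoter windows of the 9 genes were searched for 3 kinds of short motif known from cell cycle genes. The windows are RefSeq sequences on GRCh38.p14, 250 bases before to 50 bases after an annotated start, and all 9 genes matched, with 14 windows. Searched on both strands were E2F words (TTTCCCGC, TTTGGCGC, TTTCGCGC or TTTGCCGC), CHR words (TTTGAA or TTCGAA) and the CCAAT box (CCAAT), which binds NF-Y. Of 35116 windows of all genes, 3.31% hold an E2F word, 16.4% a CHR word and 34.6% a CCAAT box. Among the 9 genes an E2F word was found in 3 (TYMS, DUT and DCK), a CHR word in 3 (RRM1, DUT and DTYMK) and a CCAAT box in 5 (RRM1, RRM2, TK1, DTYMK and SAMHD1). Counted by window, as the shares are, these were 3, 3 and 6 of the 14 windows, of which DUT has 4. The window of DCTPP1 held none of these letters. The stretches given with the genes below are 30 bases of the gene's own strand with the matches in capitals, chosen to show the matches nearest the start, and no capitalised match overlaps another. A match describes the letters and was not tied to binding or to the fall in expression.

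Ribonucleotide reductase showed unequal falls in its 2 subunits. RRM2 (ENSG00000171848, chromosome 2 from 10120698 to 10211725, + strand), the small subunit that holds the radical needed for catalysis, was at 51.0, 57.8 and 54.3 FPKM in control replicates 1 to 3 and at 11.7, 12.6 and 12.5 FPKM in OFD1-depleted replicates 1 to 3. The OFD1-depleted values lay within 1 FPKM of each other and far under all controls. The log2 fold change was -2.14 (95% interval from -2.40 to -1.87, limma adjusted p = 5e-06), and 0.225% of all genes tested had a lower one. RRM2 ranked 4 by p among the 12025 genes, and it was called under all 18 alternative settings, with a log2 fold change from -2.18 to -2.09 when each sample was left out in turn. No RRM2 pseudogene exceeded 0.0215 FPKM, and the genes that overlap it were at or near 0. The first RRM2 window, around the start at 10122739, holds 3 CCAAT boxes, and 3.26% of all windows hold at least that many. Their surroundings are much alike and face the same way:
RRM2, offset -136 (chr2:10122603-10122632, + strand): gggcaaggcgcagCCAATgggaagggtcgg
RRM2, offset -106 (chr2:10122633-10122662, + strand): aggcatggcacagCCAATgggaagggccgg
RRM2, offset -79 (chr2:10122660-10122689, + strand): cggggcaccaaagCCAATgggaagggccgg
The offset is that of the first base of the stretch from the start.

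RRM1 (ENSG00000167325, chromosome 11 from 4094707 to 4138932, + strand), the large subunit with the catalytic site, was at 45.7, 54.3 and 44.6 FPKM in control and at 30.1, 20.9 and 30 FPKM in OFD1-depleted replicates 1 to 3. All OFD1-depleted values were under the controls, with replicate 2 the lowest. RRM1 fell by 0.85 on the log2 scale (95% interval of the log2 fold change from -1.20 to -0.49, limma adjusted p = 0.00476). It was called in 17 of 18 alternatives and not without the filter on low values (adjusted p = 0.0538). Without OFD1-depleted replicate 2 the log2 fold change was -0.67 (adjusted p = 0.00381). RRM1 has 1 CCAAT box near its start at 4094685:
RRM1, offset -41 (chr11:4094644-4094673, + strand): ggcatgtccatatCCAATggggcccatggg

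The ratio of RRM2 to RRM1 FPKM was 1.12, 1.06 and 1.22 in controls 1 to 3, against 0.388, 0.604 and 0.416 after OFD1 depletion. The transcripts of the small subunit were thus slightly above those of the large one in every control and under them in every OFD1-depleted sample. The mean log2 ratio was lower by 2.46-fold (log2 difference -1.30), and the groups did not overlap (p = 0.1 by exact permutation, two-sided, below which 3 samples a group cannot go). RRM2B (ENSG00000048392), the small subunit that p53 induces and that serves repair and mitochondrial DNA in resting cells, had a higher mean after OFD1 depletion, at 13.6, 15.4 and 11.3 FPKM in control and 24.2, 14.9 and 22.5 FPKM in OFD1-depleted replicates 1 to 3. Its groups overlapped through OFD1-depleted replicate 2, and its log2 fold change of 0.59 (95% interval from 0.17 to 1.01) did not pass (limma adjusted p = 0.0579). RRM2B was called higher without that replicate (log2 fold change 0.80, adjusted p = 0.00413) and in 7 of 18 alternatives in all. The RRM2 to RRM2B ratio was 3.75, 3.75 and 4.80 in control and 0.483, 0.850 and 0.555 in OFD1-depleted replicates, a 6.67-fold lower mean ratio on the log2 scale (exact permutation p = 0.1). RRM2 transcripts therefore exceeded those of RRM2B in every control and lay under them in every OFD1-depleted sample.

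**Figure D3:**
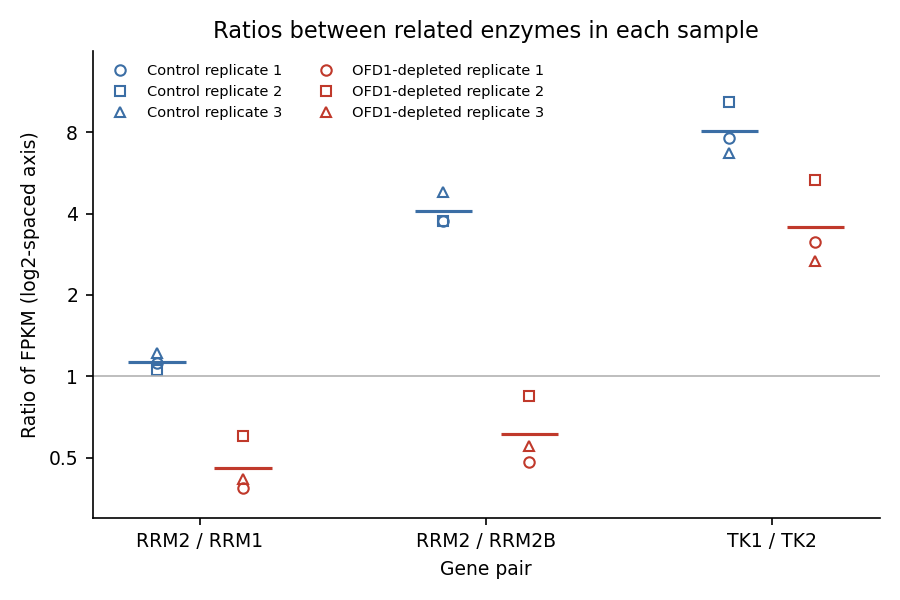
Ratios of FPKM per sample (log2-spaced axis) for RRM2 to RRM1, RRM2 to RRM2B and TK1 to TK2, with a symbol for each replicate number and a bar for the geometric mean of the group. The RRM2 to RRM1 and RRM2 to RRM2B ratios are above 1 in the 3 controls and under 1 in the 3 OFD1-depleted samples, while the TK1 to TK2 ratio stays above 1 in all 6.

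The 3 thymidylate enzymes all fell. TYMS (ENSG00000176890, chromosome 18 from 657653 to 673578, + strand), the target of fluorouracil, was the most abundant of the 9 in control, at 72.5, 79.7 and 68.4 FPKM, and was at 38.3, 39.3 and 33.5 FPKM in OFD1-depleted replicates 1 to 3. Its groups were narrow and well apart, with a log2 fold change of -0.99 (95% interval from -1.27 to -0.71, limma adjusted p = 0.000367). TYMS was called under all 18 alternatives. It lies across the opposite strand genes ENOSF1 (2.45 to 4.14 FPKM) and TYMSOS (2.36 to 4.39 FPKM), and since the strand setting of the counting is not given in the sources used here, some of their reads could be counted in TYMS. TYMS holds 1 E2F word just before its start at 657653:
TYMS, offset -50 (chr18:657603-657632, + strand): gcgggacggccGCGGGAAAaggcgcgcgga

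TK1 (ENSG00000167900, chromosome 17 from 78174091 to 78187233, - strand), the cytosolic thymidine kinase, was at 60.3, 76.3 and 65.2 FPKM in control and at 32.2, 42.3 and 28.1 FPKM in OFD1-depleted replicates 1 to 3. Replicate 2 was the highest of each group, and the groups did not overlap. The log2 fold change was -0.99 (95% interval from -1.35 to -0.63, limma adjusted p = 0.00201, called under all 18 alternatives). TK2 (ENSG00000166548), which does the same step in mitochondria, was at 7.94, 7.38 and 9.73 FPKM in control and 10.2, 7.93 and 10.5 FPKM in OFD1-depleted replicates. Its groups overlapped, and the log2 fold change of 0.19 (95% interval from -0.16 to 0.55) did not pass (limma adjusted p = 0.468), nor did it under any alternative. The TK1 to TK2 ratio was 7.59, 10.3 and 6.70 in control and 3.15, 5.34 and 2.67 in OFD1-depleted replicates. The mean log2 ratio was lower by 2.27-fold without overlap (exact permutation p = 0.1). No E2F word, CHR word or CCAAT box was found in the first TK1 window. The second TK1 window, around the start at 78187052, holds 2 CCAAT boxes, and 10.8% of all windows hold at least that many. Both are read on the strand opposite to the gene, as ATTGG:
TK1, offset -90 (chr17:78187113-78187142, - strand): cggccgggcgctgATTGGccccatggcggc
TK1, offset -59 (chr17:78187082-78187111, - strand): gggccggctcgtgATTGGccagcacgccgt

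DTYMK (ENSG00000168393, chromosome 2 from 241675747 to 241686944, - strand), the kinase on which both thymidylate routes converge, was at 57.6, 66.4 and 55.8 FPKM in control and at 35.1, 46.0 and 31.0 FPKM in OFD1-depleted replicates 1 to 3. Again replicate 2 was the highest of each group, and no values overlapped. DTYMK fell by 0.70 on the log2 scale (95% interval of the log2 fold change from -1.04 to -0.35, limma adjusted p = 0.0119). The call was lost without control replicate 2 (adjusted p = 0.054) and without the filter on low values (adjusted p = 0.0801), and without OFD1-depleted replicate 2 the log2 fold change was -0.86 (adjusted p = 0.0012). The DTYMK window holds a CCAAT box and a CHR word side by side before the start at 241686815, and a further CCAAT box nearer to it:
DTYMK, offset -100 (chr2:241686886-241686915, - strand): ggccccggCCAATcccTTCGAAtttggccg
DTYMK, offset -37 (chr2:241686823-241686852, - strand): ctgttgacgccggCCAATgggagctccgga

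DCK, the salvage kinase that also activates cytarabine and gemcitabine, fell about as far as TYMS and TK1. DCK (ENSG00000156136, chromosome 4 from 70992538 to 71030914, + strand) was at 13.9, 18.9 and 14.0 FPKM in control and at 9.14, 6.88 and 7.47 FPKM in OFD1-depleted replicates 1 to 3. All OFD1-depleted values were under the controls, and the log2 fold change was -0.98 (95% interval from -1.35 to -0.62, limma adjusted p = 0.00215, called under all 18 alternatives). DCK overlaps MOB1B on the same strand, which was at 5.01 to 6.19 FPKM in control and 2.02 to 3.43 FPKM in OFD1-depleted samples, and how shared reads were divided is not known. DCK holds 1 E2F word, which here lies after the annotated start at 70993649:
DCK, offset 10 (chr4:70993659-70993688, + strand): gctgcctccgcGCGCCAAAgtcaaaccccg

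The 2 pyrophosphatases, DUT and DCTPP1, had log2 fold changes at the small end of the 9. DUT (ENSG00000128951, chromosome 15 from 48331011 to 48343373, + strand), which keeps uracil out of DNA by hydrolysing dUTP, was at 42.8, 49.0 and 50.3 FPKM in control and at 36.4, 39.5 and 30 FPKM in OFD1-depleted replicates 1 to 3. The groups did not overlap, but the gap between the lowest control and the highest OFD1-depleted value was smaller than the range within either group. The log2 fold change of -0.43 (95% interval from -0.74 to -0.12) did not pass (limma adjusted p = 0.0585). DUT was called in 6 of 18 alternatives, among them that without OFD1-depleted replicate 2 (log2 fold change -0.51, adjusted p = 0.0172). The DUT pseudogenes reached at most 0.848 FPKM (DUTP6), and how reads of near-identical copies were divided is not known. No E2F word, CHR word or CCAAT box was found in the other DUT windows. The fourth DUT window, around the start at 48332197, holds 2 E2F words in opposite orientation, and 0.145% of all windows hold at least that many:
DUT, offset -46 (chr15:48332151-48332180, + strand): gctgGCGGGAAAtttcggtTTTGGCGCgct

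DCTPP1 (ENSG00000179958, chromosome 16 from 30423615 to 30430030, - strand), which hydrolyses dCTP and its modified forms, was at 28.3, 33.0 and 26.6 FPKM in control and at 19.4, 24.5 and 15.4 FPKM in OFD1-depleted replicates 1 to 3. Its groups did not overlap, and the log2 fold change was -0.58 (95% interval from -0.96 to -0.21, limma adjusted p = 0.0386). DCTPP1 had the least firm of the 7 calls, kept in 10 of 18 alternatives. Of the 6 comparisons that left out a sample 5 lost it (adjusted p of 0.0701 to 0.133), and only that without OFD1-depleted replicate 2 kept it (adjusted p = 0.00536). It was also lost with median-of-ratios scaling (adjusted p = 0.0686), limma without trend (0.0737) and no filter on low values (0.168). It overlaps ZNF771 on the opposite strand, which was at 11.2 to 14.0 FPKM in control and 11.2 to 15.4 FPKM in OFD1-depleted samples.

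SAMHD1, the triphosphohydrolase that lowers the deoxynucleotide pool in resting cells and restricts retroviruses, was the least abundant of the 9. SAMHD1 (ENSG00000101347, chromosome 20 from 36890229 to 36951843, - strand) was at 3.34, 4.04 and 3.16 FPKM in control and at 2.55, 2.16 and 2.35 FPKM in OFD1-depleted replicates 1 to 3. The OFD1-depleted values lay under the controls, and the log2 fold change of -0.55 (95% interval from -0.95 to -0.15) did not pass (limma adjusted p = 0.0587). It was called in 4 of the 17 alternatives that tested it and in none of the 6 that left out a sample (adjusted p from 0.0612 to 0.183). The SAMHD1 window holds 2 CCAAT boxes close together before the start at 36951708:
SAMHD1, offset -56 (chr20:36951735-36951764, - strand): caggaggCCAATaggctgCCAATactcctt

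The order of the 9 genes by level, on the FPKM scale, differed between the groups. In control cells it ran TYMS, TK1, DTYMK, RRM2, RRM1 and DUT, with means from 73.5 ± 5.74 down to 47.4 ± 3.97 FPKM (SD, n = 3) and overlapping values between each gene and the next, followed without overlap by DCTPP1 (29.3 ± 3.30), DCK (15.6 ± 2.88) and SAMHD1 (3.51 ± 0.465). In OFD1-depleted cells it ran DTYMK, TYMS, DUT, TK1, RRM1 and DCTPP1, from 37.4 ± 7.74 down to 19.8 ± 4.54 FPKM (SD, n = 3), again with overlap between neighbours, then without overlap RRM2 (12.3 ± 0.519), DCK (7.83 ± 1.17) and SAMHD1 (2.36 ± 0.196). RRM2 moved from 4 to 7 in the order, from above DCTPP1 to below it, without overlap between these genes in either group. DUT moved from 6 to 3, TK1 from 2 to 4 and DTYMK from 3 to 1, among genes whose values overlapped those of their neighbours in the OFD1-depleted order. Exact permutation tests between neighbours without overlap gave p = 0.1, the smallest possible, which any pair without overlap gives. These tests also treat 2 genes measured in the same samples as independent groups, so they add nothing to the ranges.

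The genes whose pattern over the 6 samples was nearest to RRM2 were found by the root mean square distance of log2(FPKM + 0.1) minus the control mean, over the genes tested. They were IGFBP1 (distance 0.106), an insulin-like growth factor binding protein, DAP (0.108), ESPL1 (0.109), which encodes separase, TPX2 (0.130), a spindle assembly factor, and TMPO-AS1 (0.141), an antisense RNA whose reads may not be told apart from those of TMPO. In these 5 genes the OFD1-depleted replicates lay between -2.33 and -1.82 of the control mean on this log2 scale. The nearest to SAMHD1 were SRR (distance 0.0416), UGDH (0.0514), SEC22B (0.0555), OIP5-AS1 (0.0659) and PDHX (0.0659). Like SAMHD1, these 5 were lowest in OFD1-depleted replicate 2.

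Beyond the 9 enzymes, 62 genes of the surrounding pathways were grouped in 5 lists, and 58 of them were tested. In these lists 6 genes fell and 1 rose past the threshold, with a median log2 fold change of 0.08 beside -0.032 over all genes. These falls were in 2 lists, the thymidylate and folate cycle and the mitochondrial supply of deoxynucleotides. As a share, 6 of 58 is close to the 11.9% of all genes tested that were called lower.

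In the thymidylate and folate cycle, 4 of 12 genes fell, none rose and the median log2 fold change was -0.12. SHMT1, the cytosolic enzyme that loads folate with the carbon unit used by TYMS, fell from 9.72 ± 0.766 FPKM in control to 5.15 ± 1.31 FPKM (both SD, n = 3, log2 fold change -0.93, limma adjusted p = 0.00663). GGH, which trims folate polyglutamates, fell from 32.1 ± 5.33 FPKM in control to 19.2 ± 1.83 FPKM (log2 fold change -0.72, limma adjusted p = 0.00691).

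Of 8 tested genes of mitochondrial deoxynucleotide supply, 2 fell and none rose, with a median of 0.15. DGUOK, the mitochondrial deoxyguanosine kinase, was at 39.6, 35.5 and 31.7 FPKM in control and at 8.59, 12.4 and 7.84 FPKM in OFD1-depleted replicates 1 to 3. This log2 fold change of -1.90 (95% interval from -2.29 to -1.51, limma adjusted p = 4.7e-05) was next in size to that of RRM2 among the genes of these lists and the 9 enzymes, and it held under all 18 alternatives. NT5M, a mitochondrial deoxynucleotidase, fell from 3.18 ± 0.809 FPKM in control to 1.43 ± 0.682 FPKM (both SD, n = 3, log2 fold change -1.17, limma adjusted p = 0.0303), a call kept in 2 of the 6 comparisons that left out a sample.

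The lists that make or break down nucleotides in general held few calls. None of 10 tested genes of pyrimidine synthesis and phosphorylation was called (median 0.02), and the smallest p-values there were those of UCK1 (log2 fold change -0.25), UCK2 (0.22) and UMPS (-0.27), with limma adjusted p from 0.228 to 0.248. Of 15 tested genes of purine synthesis and salvage only PRPS1, which makes phosphoribosyl pyrophosphate, was called, rising from 34.0 ± 3.32 FPKM in control to 45.9 ± 1.30 FPKM (both SD, n = 3, log2 fold change 0.43, limma adjusted p = 0.0342). PRPS1 kept the call in 2 of the 6 comparisons that left out a sample, while PPAT (-0.54) and ADSL (0.41) did not pass. None of 13 tested genes of nucleotide breakdown and pool cleaning was called (median 0.07), where ITPA (0.48) and ADA (0.39) were among the 3 genes with the smallest p-values. At an unadjusted limma p under 0.05, 0 genes of the pyrimidine list and 2 of the breakdown list, ITPA among them, passed. Such a p was common, since MITF with an unadjusted limma p of 0.044 ranked 3537 by p among the 12025 genes tested. Limma without the trend called 0 in each of these 2 lists. An adjusted p that missed the threshold does not show that a gene was unaltered.

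**Figure D4:**
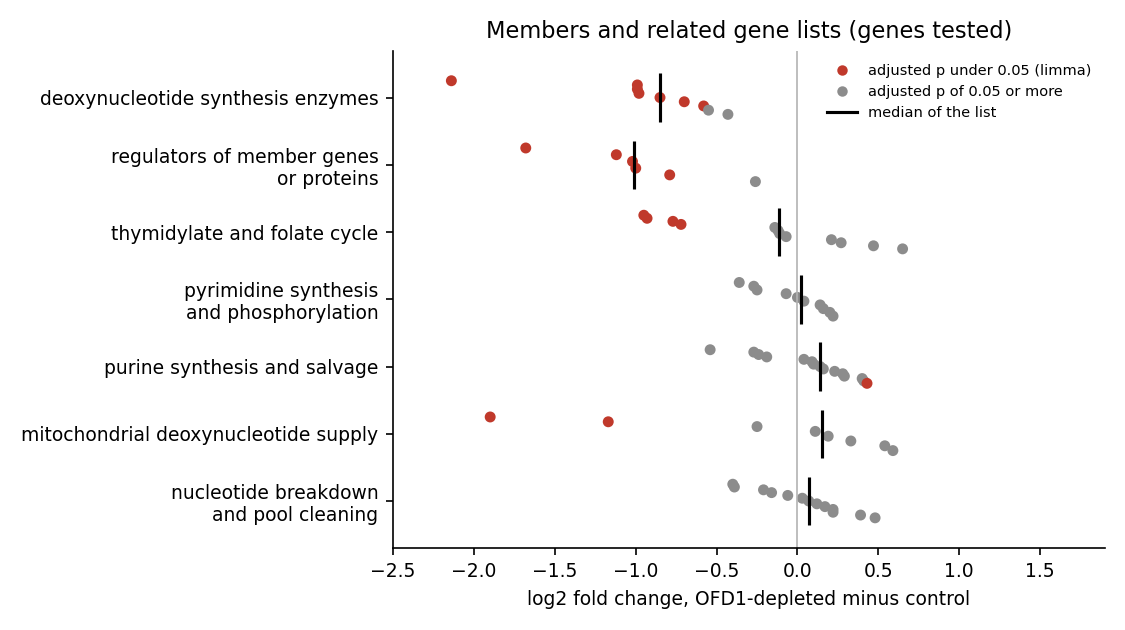
The log2 fold change (OFD1-depleted minus control) of each tested gene, 1 point a gene, in the 9 enzymes, their regulators and 5 lists of related pathways, with red for an adjusted p under 0.05 and a bar for the median. All points of the enzymes and of the regulators lie under 0, whereas the medians of the other lists lie between -0.12 and 0.15.

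Of 6 genes that regulate the enzymes or their transcripts 5 were called lower, the sixth being FZR1 (log2 fold change -0.26, limma adjusted p = 0.241), which helps the anaphase-promoting complex degrade TK1 and RRM2. The median was -1.01, and in all 6 genes the OFD1-depleted values lay under the controls without overlap. Over all genes tested, 11.9% were called lower, 22.3% lay lower without overlap and the median was -0.032. E2F1, a transcription factor of S-phase genes, was at 20.3, 22.4 and 20.9 FPKM in control and 6.58, 6.90 and 6.19 FPKM in OFD1-depleted replicates 1 to 3 (log2 fold change -1.68). CDK1, whose kinase complex with cyclin A phosphorylates RRM2 and SAMHD1, fell from 53.7 ± 4.78 FPKM in control to 24.5 ± 1.20 FPKM (both SD, n = 3, log2 fold change -1.12, limma adjusted p = 0.000147). CCNF, the ubiquitin ligase subunit that binds RRM2 protein for degradation, fell from 8.77 ± 0.535 to 4.33 ± 0.133 FPKM (log2 fold change -1.0, limma adjusted p = 0.000531). CCNA2 (-1.02) and CDK2 (-0.79), named after their values were seen, were the other calls. The list was written with earlier results of these data known, so its count is a description.

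Within the OFD1-depleted group, the position of replicate 2 among the enzymes moved with transcript length, and the source of that difference was not tested. The canonical transcripts run from 1051 bases in DTYMK to 4649 in SAMHD1. The log2 value of replicate 2 minus the mean of replicates 1 and 3 was 0.48 in DTYMK, 0.50 in DCTPP1 (1181 bases) and 0.49 in TK1 (1431 bases). It was 0.13 in TYMS (1613 bases) and 0.26 in DUT (2141 bases). Among the longer transcripts it was -0.26 in DCK (2506 bases), -0.52 in RRM1 (3142 bases), 0.06 in RRM2 (3258 bases) and -0.17 in SAMHD1, and it was -0.65 in RRM2B and -0.38 in TK2. RRM1 was thus lower, and RRM2 a little higher, in replicate 2 than the median of -0.08 over all genes in the middle bin by length. GC content went with it, from -0.33 in the bin of genes with the least GC to 0.24 in the bin with the most. With a trend on transcript length and GC taken out of each sample, an alternative chosen after the data were seen, all 9 enzymes were called lower, with log2 fold changes of -2.16 in RRM2, -0.51 in DUT (adjusted p = 0.0143) and -0.51 in SAMHD1 (adjusted p = 0.0316).

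**Figure D5:**
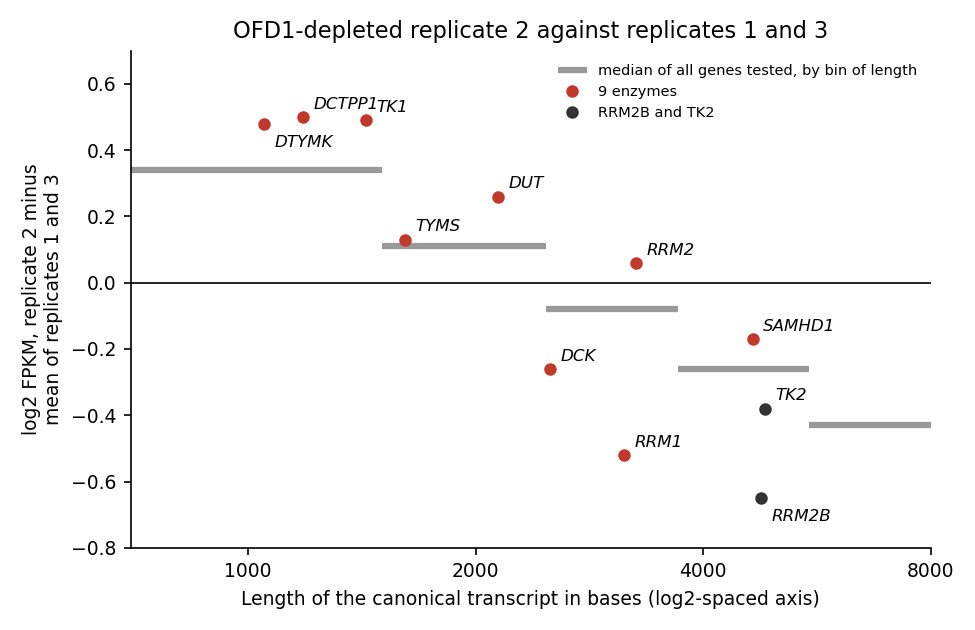
Difference in log2(FPKM + 0.1) between OFD1-depleted replicate 2 and the mean of replicates 1 and 3 against the length of the canonical transcript in bases (log2-spaced axis), for the 9 enzymes (red), RRM2B and TK2 (dark). Grey bars give the median of all tested genes in each of 5 bins by length. The bins are about equal in number of genes, and the bars are cut at the edges of the axis. The 3 shortest enzyme transcripts lie at 0.48 to 0.50, and the grey bars fall from 0.34 to -0.43.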

How the data were processed

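RNA-seq was deposited as 1 table of FPKM per gene for 6 samples. By the methods and the submitters' processing notes, the authors mapped the read pairs by HISAT2 2.0.5 to the Ensembl GRCh38 reference and computed FPKM with StringTie (version not given in the sources used here). The methods name a directional library kit, while the labels also name another kit and an extraction from retinas, which does not match a cell line. Columns were mapped to samples by condition and replicate number. The 6464 genes on alternative scaffolds, all at 0, were left out. The table holds no counts. At the best step at most 31.9% of low values of single-exon genes lay on whole multiples (tolerance 0.02 of a read), so depth was not recovered and the sum of FPKM, 408302 to 493510 per sample, is not a depth.

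Genes averaging 1 FPKM or more over the samples were compared as log2(FPKM + 0.1) with limma 3.58.1 (R 4.3.3, with trend), Benjamini-Hochberg adjustment over all 12025 genes and a threshold of 0.05, two-sided. A fold change on this scale understates the change of low genes. Single values and ratios were compared by two-sided exact permutation (smallest p 0.1). Scripts ran on Python 3.11.15, and the fit was tested on simulated data. Named genes were the 9 enzymes, RRM2B, TK2, OFD1, the 3 smallest p-values of each list, the 5 genes nearest to RRM2 and to SAMHD1, and genes that overlap the enzymes or are their pseudogenes. Some genes that this rule names are not reported here, although the counts include them. The members and lists were chosen with earlier results of these data known. The marker and pathway lists are described by counts and medians, with no set test. The alternatives tried were a pseudocount of 1 or 0.01, all genes or only those averaging 5 FPKM, other scalings (same total, same total without mitochondrially encoded genes, median-of-ratios, quantile), limma without trend or with array weights, the replicate number as a block, the omission of single samples and, added after the data were seen, removal of a trend on transcript length and GC content (canonical transcripts of GENCODE version 44).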

Additional observations from a re-analysis of the deposited data

How the results depend on the processing

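Over 33 results and 18 alternatives, 479 of 561 values kept their side of the threshold or stayed within the limits for counts and medians. None reversed direction, 32 lost and 31 gained a call, and 19 counts moved by more than 1.5 times. Some of the values that kept their side could not do otherwise. The ratios cannot pass the threshold, as their smallest exact p is 0.1, and a member with a negative log2 fold change cannot be called higher. RRM2, TYMS, TK1 and DCK were called lower under all 18, and without the filter on low values they were the only 4 of the 9. All 9 were called with scaling to the same total, with array weights and with length and GC trends removed, 8 with quantile normalization, with the same total without mitochondrially encoded genes and without OFD1-depleted replicate 2, and 5 to 8 with each sample left out. With median-of-ratios scaling 6 of the 9 were called, and DCTPP1 was lost. The median of the 9 genes ranged from -0.99 (same total) to -0.76 (without control replicate 2). Scaling to the same total moved the median of all genes from -0.032 to -0.177 and the calls from 1429 lower and 610 higher to 1990 and 272, so relative to all genes its larger falls are of about the same size. Quantile normalization gave 1313 lower and 1085 higher, array weights 2263 and 1693, no filter 823 and 260, length and GC removal 2022 and 1176. Omission of OFD1-depleted replicate 2 gave 1766 and 1097.

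In the pathway lists the 6 lower genes became 1 with no filter, 10 with length and GC removal and 3 to 7 with a sample left out (3 without control replicate 1, control replicate 2 or OFD1-depleted replicate 3). The 1 higher gene became 0 with no filter or the same total, 2 at 5 FPKM or median-of-ratios scaling, 5 with quantile normalization or the replicate block, 7 with array weights or length and GC removal, and 0 to 3 with a sample left out. The causes were not tested. With the replicate number as a block 7 of the 9 genes were again called (RRM2 adjusted p = 3.15e-08), the ratios gave exact p = 0.25, the smallest for 3 pairs, and all genes gave 1534 lower and 762 higher calls. Same-numbered samples correlated in their deviations at 0.058, 0.048 and 0.011, and control replicate 3 correlated best with OFD1-depleted replicate 2 (0.026), so the numbers were not taken to pair the samples. Depth was not recovered, which leaves the counting error of low genes such as SAMHD1 unknown.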
